A study of Mus musculus with 5 samples.

Results

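The data describe how gene expression in ovarian granulosa cells of C/EBPα and C/EBPβ double-floxed knockout mice differed between 8 h and 24 h after human chorionic gonadotropin (hCG). They come from 2 of the 5 Affymetrix 3' expression arrays of the series, 1 array at each time. Each gene was represented by a probe set with 1 gene symbol, that with the highest mean of both knockout arrays, which gave 18194 genes out of 45101 probe sets. Of these, 13006 reached a floor intensity of 22 on at least 1 of the arrays. The question was which genes still changed over time after an ovulatory stimulus when both transcription factors were targeted.

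The series compared these knockout cells with wild-type granulosa cells during ovulation and luteinization. The knockout genotype is CEBPα/β fl/fl fl/fl combined with Cyp19-cre, floxed at both genes, with the recombinase driven by the promoter of aromatase, an enzyme of granulosa cells. Follicles of all mice had been stimulated with eCG, the equine chorionic gonadotropin, for 48 h before hCG, which stands in for the surge of luteinizing hormone. Knockout mice were 23 days old at 8 h and 24 days old at 24 h, and so were the wild-type mice of the same times, whose arrays are set beside the knockout here. A further knockout array from 4 h after hCG, at 23 days, lay on another scale, with a median intensity of 54 against 31 at 8 h and 32 at 24 h, and is given only as an intensity or as a rank within its array. How many animals an array stands for was not stated in the labels. Single arrays leave no replicate error and no test, so every value is that of a single library, and a difference between times cannot be told apart from a difference between the preparations.

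In the preovulatory follicle, luteinizing hormone acts on granulosa cells through cyclic AMP and makes them secrete EGF-like ligands, which spread the signal through ERK. In the following hours the cells make progesterone receptor, prostaglandins, proteases and a hyaluronan matrix around the oocyte, and the follicle ruptures. The cells that stay behind leave the cell cycle and become luteal cells, which take up and make cholesterol for progesterone synthesis. C/EBPα and C/EBPβ are leucine zipper transcription factors induced downstream of that signal.

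The size rule for a change was 2-fold or more between both intensities, which is 1 on the log2 scale, with the higher intensity at or above the floor. In the knockout 893 genes were higher at 24 h, which is 6.87% of those above the floor, and 679 were lower, which is 5.22%. The median log2 difference of all genes above the floor was 0.08, and 66.5% of the genes lay within 0.5 log2 of no difference. The quantiles of both knockout arrays nearly coincided, so a shift of all genes together could not be seen. The falls reached further than the rises. At least 8-fold lower were 62 genes and at least 8-fold higher 31. At the lower end of the scale the true size of a change is not measured: 85 of the falls ended under the floor and 108 of the rises began under it, and their folds, counted against the floor, are given as "at least".

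**Figure D1:**
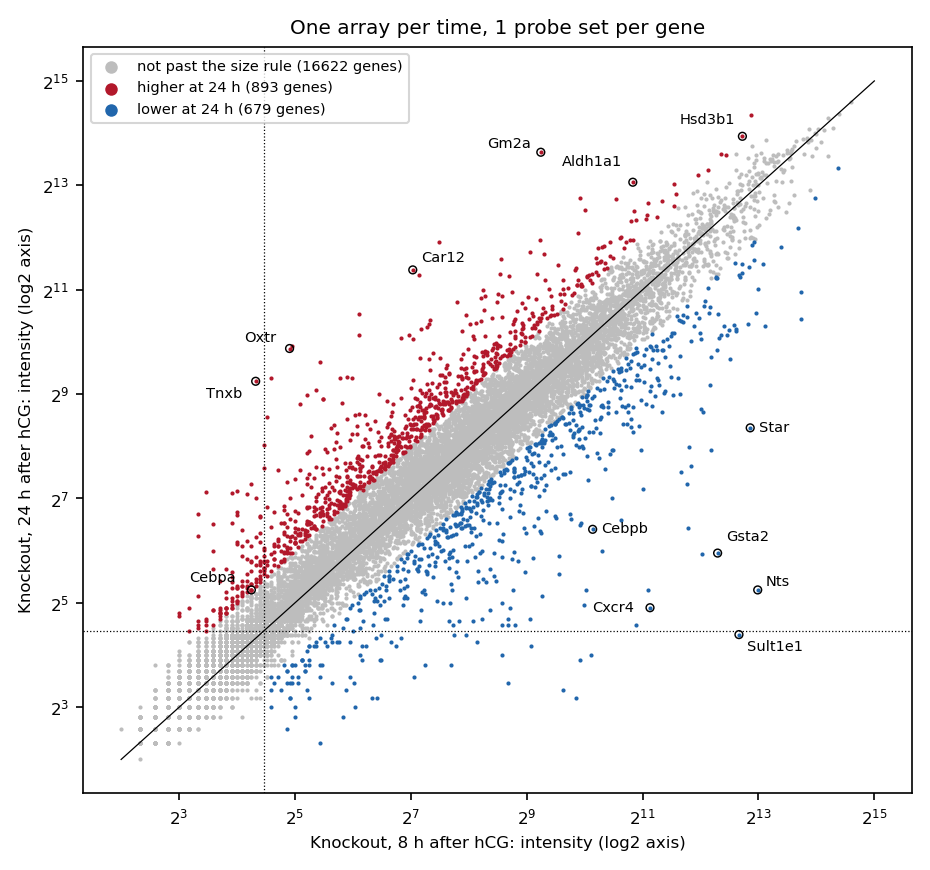
Intensity of 18194 genes on the knockout array at 24 h (vertical, log2 axis) against that at 8 h (horizontal, log2 axis), with the diagonal of no difference and the floor of 22 as dotted lines. Red points are the 893 genes at least 2-fold higher at 24 h and blue points the 679 at least 2-fold lower, and the blue points reach further from the diagonal, down to Sult1e1 at 21 from 6486.

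Cebpb, 1 of the targeted genes, had an intensity of 1127 at 8 h and 85 at 24 h in the knockout, 13.3-fold lower at 24 h, against 7436 and 3976 in wild type at the same times and 42 in the knockout at 4 h. Both knockout values lay under both wild-type values, but the array labelled knockout at 8 h carried a clear Cebpb signal, for which the labels give no reason. The difference between 24 h and 8 h is therefore between arrays that also differ in the level of a targeted gene. Whether the probe set lies in the deleted part was not stated in the labels. Its rank within the knockout arrays was at the 45.1, 94.4 and 64.8 percentile at 4 h, 8 h and 24 h, highest at 8 h. Cebpa was 19 at 8 h and 38 at 24 h in the knockout and 685 and 352 in wild type. Its rise just met the rule as measured but was at least 1.73-fold against the floor, and it no longer met the rule under 3 other scalings of the arrays. Cebpd, a related factor that was not targeted, fell from 302 to 44, 6.86-fold. Trib2, a pseudokinase that promotes breakdown of C/EBPα, rose from 338 to 1405, although it missed the rule with other choices of its probe set. Of the 8 members of the C/EBP and Tribbles families above the floor, 2 rose and 2 fell, a share of 50% against 12.1% of all genes.

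The arrays themselves differed little by technical measures. Over 18 hybridization control probe sets the knockout log2 difference ranged from -0.07 to 0.13, with an SD of 0.05. Different probe sets of the same gene differed with an SD of 0.39, over 5856 genes with at least 2 above the floor. Of 678 called genes with a second probe set above the floor, 94.8% had it in the same direction but only 56.2% had it past the rule as well. The ratio of 3' to 5' probe sets, a sign of RNA integrity, was 1.38 at 8 h and 1.5 at 24 h for Actb, close to the 1.36 and 1.45 of wild type. Of 12 housekeeping genes above the floor none rose and 2 fell, Hprt from 3874 to 1511 and Pgk1 from 6726 to 2540. That share was 16.7%, while 5.22% of all genes fell and 12.1% passed in either direction.

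Most genes of the ovulatory response list, which was chosen with earlier results of these data known, were lower at 24 h. The series holds no array from before hCG, so their induction was not measured. Of 22 genes of the ovulatory response above the floor, 15 fell and none rose, a share of 68.2%, while 5.22% of all genes fell. The median log2 difference of the list was -2.36 against 0.08 over all genes. In wild type 17 of the same genes fell, with a median of -1.88, and 14 fell in both genotypes. Sult1e1, the sulfotransferase that inactivates estrogens, had the largest fall of all genes, with 6486 at 8 h and 21 at 24 h, at least 295-fold lower. Its wild-type values were 7457 and 33, so the genotypes ran side by side. Within the knockout its rank among all probe sets of an array was at the 99.9 and 99.3 percentile at 4 h and 8 h. At 24 h it was under the floor. Ptgs2, the inducible cyclooxygenase that makes prostaglandins for follicle rupture, was 409 at 8 h and 11 at 24 h, at least 18.6-fold lower, and 865 and 47 in wild type. It stood at the 99.3 and 85.7 percentile at 4 h and 8 h and was under the floor at 24 h. Pgr, the progesterone receptor gene, was already low at 8 h, at 71 at 8 h and 15 at 24 h, with ranks at the 99 and 62.6 percentile at 4 h and 8 h. Its call was lost when all its probe sets were averaged.

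Of the EGF-like ligands, Btc, Ereg and Epgn fell, and Areg was not analysed here. Btc, which encodes betacellulin, was 1043 at 8 h and 38 at 24 h in the knockout, 27.4-fold lower, against 293 and 23 in wild type. Ereg, which encodes epiregulin, was 443 at 8 h and 24 at 24 h, 18.5-fold lower, against 1019 and 75 in wild type. Epgn, the gene of epigen, went from 1110 to 16, at least 50.5-fold lower, and from 614 to 17 in wild type. All 3 ended at 75 or less in both genotypes, from unequal starts: Btc and Epgn began higher in the knockout array than in wild type, and Ereg lower. Transcription regulators of the list fell less. Runx1 fell from 1413 to 245 and Pparg, a nuclear receptor of lipid metabolism, from 1775 to 368, 5.77-fold and 4.82-fold. Prkg2, a cyclic GMP-dependent kinase downstream of the progesterone receptor, fell from 3466 to 156, 22.2-fold. Not past the rule were Adamts1, a versican-cleaving protease (4904 to 2859), Ctsl, cathepsin L (18776 to 12116), Rgs2, a brake on G protein signals (6989 to 4068), and Hif1a (7003 to 4977).

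Edn2 differed in direction between the genotypes. It encodes endothelin-2, a constrictor peptide that granulosa cells make around rupture. In the knockout it was 603 at 8 h and 83 at 24 h, 7.27-fold lower, and in wild type it was 105 and 208, a log2 difference of 0.99 that just missed the rule. The knockout value was higher than wild type at 8 h and lower at 24 h.

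Several genes of the hyaluronan matrix around the oocyte fell steeply. Of 8 members above the floor 5 fell and none rose, a share of 62.5%, while 5.22% of all genes fell. In wild type 6 of 9 fell, with a median log2 difference of -1.86. The knockout median was -2.65. That median was -1.60 with averaged probe sets and -0.60 over all 12 members with no floor. Ptx3, the pentraxin that cross-links the matrix, was 1896 at 8 h and 24 at 24 h, 79-fold lower, and 1873 and 34 in wild type. Tnfaip6, which transfers heavy chains onto hyaluronan, went from 536 to 18, at least 24.4-fold lower. Vcan, the proteoglycan versican, stayed measurable at 13654 at 8 h and 1395 at 24 h, 9.79-fold lower, as in wild type with 12030 and 1259. Lyve1, a hyaluronan receptor, was 4163 at 8 h and 61 at 24 h in the knockout and 5158 and 77 in wild type. It was lower in rank at 4 h than at 8 h, unlike Sult1e1 and Ptgs2, with ranks at the 68.4, 98.7 and 60.3 percentile over the 3 times. Cd44, another hyaluronan receptor, fell only in the knockout by the rule, from 474 to 118 against 284 to 185 in wild type, and this difference between genotypes was not tested. Has2, the hyaluronan synthase, was under the floor on both knockout arrays, at 12 and 11. In bulk RNA such as this, fewer cells of a type and less RNA per cell cannot be told apart.

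Neuropeptides and secretory genes held several of the 15 largest falls. Of 21 members above the floor 8 fell and 2 rose, a share of 47.6% against 12.1% of all genes. Of the falls in this list 7 were shared with wild type. Nts, the gene of neurotensin, was 8118 at 8 h and 38 at 24 h in the knockout, 214-fold lower, and 15588 and 108 in wild type. Gcg, the proglucagon gene, went from 928 to 9 and Npy, neuropeptide Y, from 533 to 26. Adcyap1, the gene of PACAP, a peptide that raises cyclic AMP, went from 383 to 32, 12-fold lower. Snap25, a SNARE protein of regulated secretion, went from 794 to 10, at least 36.1-fold lower, and the granins Scg2 and Chgb from 381 to 24 and from 215 to 21. Outside that list, Nmu (neuromedin U) fell from 2180 to 38, 57.4-fold, and Penk (proenkephalin) from 3514 to 86, 40.9-fold. Apela, a ligand of the apelin receptor, fell from 967 to 15, at least 44-fold. At 8 h Nmu, Penk, Apela, Gcg, Npy, Snap25 and Adcyap1 were each higher on the knockout array than on the wild-type array, where they read 835, 1863, 252, 364, 201, 413 and 119. Nts was lower, and all of them were at 108 or less at 24 h in both genotypes. Of the same list Oxtr and Rab27a rose, the latter call lost with averaged probe sets, and 11 members did not pass, such as the secretory genes Scg5 (49 to 93) and Stx1a (264 to 492).

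Promoter sequence was looked at as a description of the genes that passed the rule in each direction. RefSeq promoters of the GRCm38.p6 build, from 250 bases before to 50 after the start of each gene, were searched on both strands for the AP-1 site TGAGTCA or TGACTCA, which are each other's reverse complement, the cyclic AMP response element TGACGTCA, the C/EBP site TTGCGCAA and the NR5A site TCAAGGTCA. None of these motifs contains another. Of the 15 largest falls 11 matched a promoter in the table, and 3 of these held an AP-1 site: Nts, Nmu and Tnfaip6, printed here from 250 bases before the start, 5′ to 3′ in the direction of the gene, with the match in capitals.
Nts: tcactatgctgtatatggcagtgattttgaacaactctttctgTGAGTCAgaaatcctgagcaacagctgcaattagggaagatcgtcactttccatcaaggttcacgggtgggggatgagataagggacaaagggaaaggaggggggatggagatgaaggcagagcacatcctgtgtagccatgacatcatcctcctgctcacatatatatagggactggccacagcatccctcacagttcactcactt
Nmu: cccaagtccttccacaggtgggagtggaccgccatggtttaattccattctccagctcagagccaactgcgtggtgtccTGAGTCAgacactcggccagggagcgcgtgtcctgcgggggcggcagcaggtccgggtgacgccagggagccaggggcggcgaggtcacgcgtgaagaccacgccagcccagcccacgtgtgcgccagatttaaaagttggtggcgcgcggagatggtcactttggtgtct
Tnfaip6: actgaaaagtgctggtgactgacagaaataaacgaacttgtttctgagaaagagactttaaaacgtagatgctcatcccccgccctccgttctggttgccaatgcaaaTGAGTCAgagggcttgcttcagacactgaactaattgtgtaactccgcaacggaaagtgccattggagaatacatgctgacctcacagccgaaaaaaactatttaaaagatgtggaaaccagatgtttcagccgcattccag
The Nts window is chr10:102490419-102490668 on the minus strand, with the match from 207 to 201 bases before the start. The Nmu window is chr5:76363778-76364027 on the minus strand, with the match from 171 to 165 bases before it. The Tnfaip6 window is chr2:52037863-52038112 on the plus strand, with the match from 142 to 136 bases before it. Of the 15 largest rises 12 matched, and 3 of these, Tnxb, Plin5 and Mgst2, also held the site, so it did not separate the directions. Shares were taken over genes with a promoter entry: 542 that fell, 701 that rose and 10488 above the floor. A gene counted if any of its promoters matched, whereas the share of all 32851 promoters counts each promoter. The AP-1 site was in 6.83% of the genes that fell, 7.13% of those that rose, 4.7% of genes above the floor and 5.2% of all promoters. The cyclic AMP response element was in 4.06% of those that fell and 1.71% of those that rose, against 3.44% of genes above the floor and 1.79% of all promoters. The C/EBP site was in 2 of 542 genes that fell and in none of 701 that rose, against 0.315% of genes above the floor and 0.183% of all promoters. The NR5A site was in 0.185% and 0.713%, against 0.315% and 0.423%. A match describes these letters only and shows no binding.

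**Figure D2:**
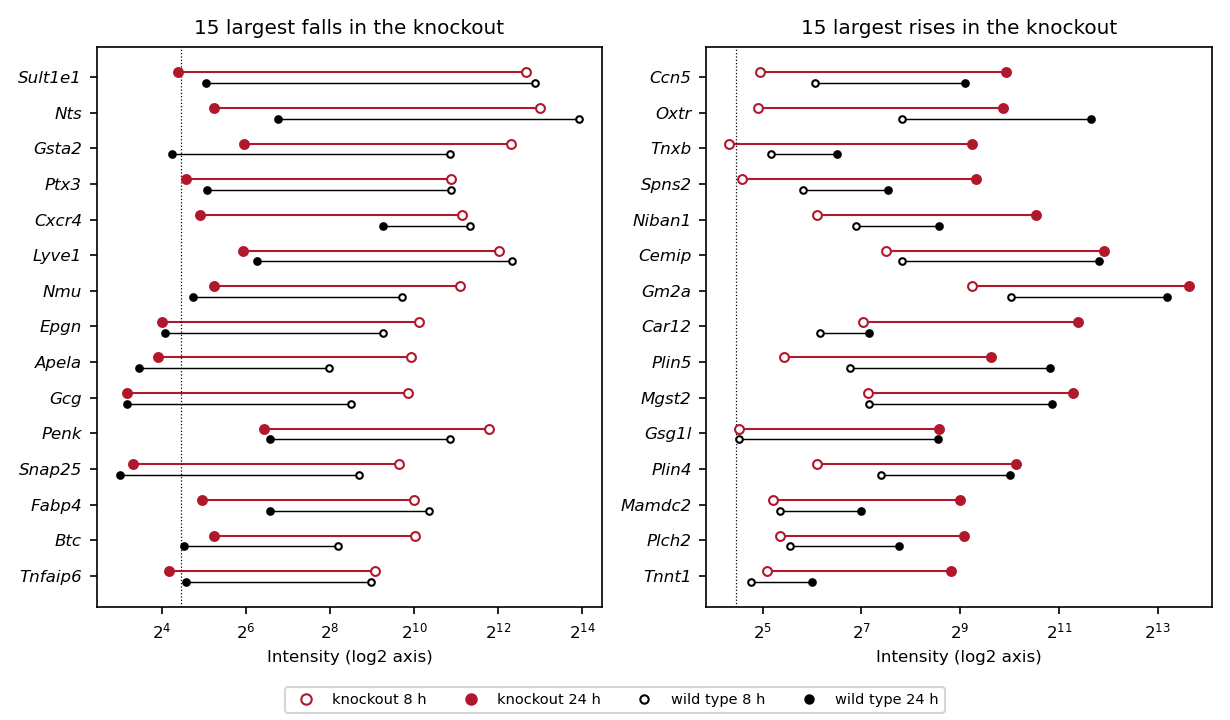
Intensity (log2 axis) of the 15 largest falls and the 15 largest rises of the knockout between 8 h (open circles) and 24 h (filled circles), 1 array each, with wild type in black beneath and the floor of 22 dotted. Sult1e1, Nts, Ptx3 and Lyve1 drop over a like range in both genotypes, Cxcr4 drops to 30 in the knockout but to 614 in wild type, and Car12 rises to 2664 in the knockout but to 142 in wild type.

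Immediate early genes and the feedback genes of ERK went down more often than up. Of 26 above the floor 14 fell and 1 rose, with a median log2 difference of -1.19, against 11, 1 and -0.88 in wild type. The knockout share that passed was 57.7%, against 12.1% of all genes. The AP-1 subunit gene Fosl1 fell from 207 to 14, at least 9.41-fold, and Jun from 890 to 364. Atf3, a stress-induced factor of the same zipper class, fell from 203 to 25, and Egr3 from 750 to 60, 12.5-fold. Klf4 fell from 986 to 92, 10.7-fold. The dual-specificity phosphatases that switch ERK off fell too, Dusp4 from 496 to 178, Dusp5 from 383 to 73 and Dusp6 from 691 to 303. Dusp1 went from 612 to 268 in the knockout and read 1459 and 1981 in wild type. Not every member followed: Fos (1060 to 569) and Egr1 (3109 to 2369) missed the rule in the knockout, and Fosl2 rose from 1054 to 2461, a call lost when its probe sets were averaged. Myc was 384 at 8 h and 476 at 24 h in the knockout, with no call, and rose from 325 to 1322 in wild type.

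Cyclic AMP signalling genes were mixed. Of 29 above the floor 7 fell and 2 rose, with a median of -0.15. The share that passed was 31.0%, against 12.1% of all genes. The phosphodiesterase Pde4d, which degrades cyclic AMP, fell from 219 to 48, 4.56-fold, close to the wild-type values of 295 and 52. Crem, whose short form represses cyclic AMP targets, fell from 222 to 56 and Creb5 from 66 to 8, though both calls were lost with averaged probe sets, and 6 of the 9 calls of the list were lost under some setting. Catalytic subunit genes of protein kinase A did not pass, at 1114 to 996 for Prkaca and 424 to 488 for Prkacb.

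Several luteal genes rose in the knockout and reached lower levels than in wild type. Of 18 luteal genes above the floor 5 rose and 3 fell, a share of 44.4% against 12.1% of all genes. The list median of 0.08 turned to -0.07 when probe sets were averaged. In wild type 7 rose and 4 fell, and 4 rises were shared. Oxtr, the oxytocin receptor gene, was 30 at 8 h, near the floor, and 938 at 24 h, 31.3-fold higher. In wild type Oxtr went from 225 to 3213, 14.3-fold higher. Another Oxtr probe set above the floor was higher too but did not pass the rule. Ptgfr, the receptor gene for the luteolytic prostaglandin F2α, was 16 at 8 h and 142 at 24 h, at least 6.45-fold higher, against 138 and 637 in wild type. Bhmt, the enzyme that passes a methyl group from betaine to homocysteine, rose from 38 to 94, 2.47-fold, where wild type rose from 93 to 8343. Timp4, an inhibitor of matrix proteases, rose from 28 to 80 in the knockout and from 18 to 574 in wild type. For these 4 genes the direction was the same in both genotypes and the level reached at 24 h was lower in the knockout. Oxtr, Ptgfr and Bhmt were already lower in the knockout at 8 h. The rises of Oxtr and Ptgfr were larger in fold in the knockout than in wild type, and those of Bhmt and Timp4 smaller. Akr1c18, which breaks down progesterone, rose from 41 to 112 in the knockout and fell from 361 to 145 in wild type. Parm1 fell from 2463 to 617 in the knockout and was 3798 and 3115 in wild type. Cdkn1b, the cell cycle inhibitor p27, was 1441 at 8 h and 2332 at 24 h, short of the rule, and rose from 917 to 3554 in wild type.

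Steroid genes divided. Of 14 steroidogenic genes above the floor 3 rose and 2 fell, with a median of 0.26. The share that passed was 35.7%, against 12.1% of all genes. Star, which carries cholesterol into mitochondria, was 7421 at 8 h and 327 at 24 h in the knockout, 22.7-fold lower, and 9231 and 1259 in wild type, 7.33-fold lower. Stard4, a cytosolic sterol carrier, fell from 486 to 145, 3.35-fold. The enzymes that follow Star did not fall: Hsd3b1, which makes progesterone, rose from 6759 to 15708, 2.32-fold, and Cyp11a1, which cleaves the cholesterol side chain, was 7938 at 8 h and 12292 at 24 h. Their wild-type values were 12490 and 18695 for Hsd3b1 and 11097 and 19408 for Cyp11a1. Nr5a2, a nuclear receptor that drives steroid genes, rose from 1633 to 3563, a call lost with averaged probe sets, and its relative Nr5a1 was 538 at 8 h and 647 at 24 h. Hsd17b7, which acts in estradiol and in cholesterol synthesis, was 814 at 8 h and 920 at 24 h in the knockout and rose from 1150 to 2766 in wild type.

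Most cholesterol synthesis genes were lower at 24 h. Of 19 members above the floor 12 fell and none rose, a share of 63.2%, while 5.22% of all genes fell. The median log2 difference of the list was -1.44 against 0.08 over all genes. In wild type 6 fell and 1 rose, with a median of -0.39, and all 19 had a lower log2 difference in the knockout than in wild type, a difference that has no test. Early in the pathway, Hmgcs1, which makes HMG-CoA, was 7759 at 8 h and 3052 at 24 h, 2.54-fold lower, against 7622 and 6221 in wild type. Mvd, the mevalonate diphosphate decarboxylase, was 438 at 8 h and 63 at 24 h, 6.95-fold lower, against 517 and 237 in wild type. Idi1, the isomerase that follows it, went from 2142 to 447, 4.79-fold lower. At these steps the 8 h values of both genotypes were close and the knockout was lower at 24 h. Sqle, the squalene epoxidase, showed the same pattern with 2095 at 8 h and 603 at 24 h, 3.47-fold lower, against 1846 and 1641 in wild type. In the later steps Lss fell from 787 to 177, Cyp51 from 1781 to 332 and Nsdhl from 1234 to 306, by 4.45-fold, 5.36-fold and 4.03-fold. Fdps (5052 to 1485) and Sc5d (1569 to 488) lost their calls when probe sets were averaged, and Msmo1 (5210 to 1127) lost it without probe sets of less specific classes. Srebf2, the factor that drives these genes, was 1017 at 8 h and 513 at 24 h, a log2 difference of -0.99 that missed the rule, and its retention protein Insig1 fell from 1450 to 609. Dhcr7, which makes cholesterol in the last step, was 1120 at 8 h and 933 at 24 h in the knockout and 2877 and 3419 in wild type.

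**Figure D3:**
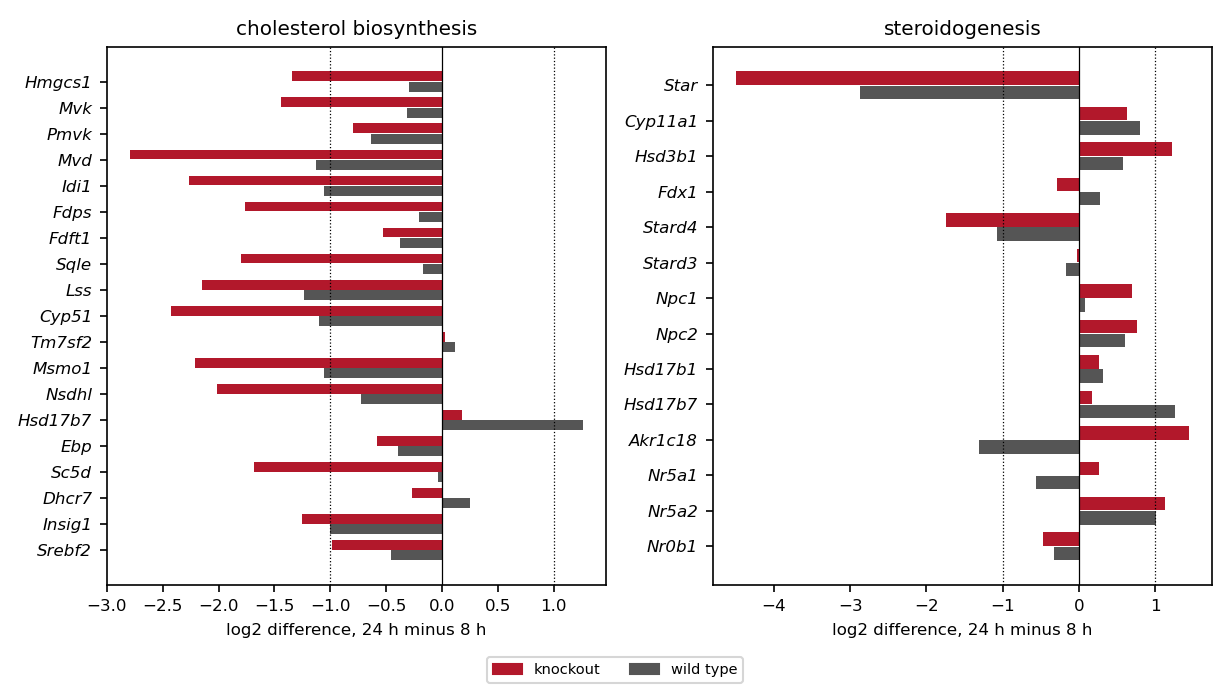
Log2 difference, 24 h minus 8 h, of each measured gene of cholesterol biosynthesis in pathway order (left) and of steroidogenesis (right), with knockout bars in red and wild-type bars in grey, 1 array per group and time, and dotted lines at the 2-fold threshold. Every red bar on the left lies below its grey partner, with Mvd at -2.80 against -1.13, and on the right Star falls in both genotypes while Akr1c18 points in opposite directions.

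Lipid storage genes moved one by one rather than together. Of 18 above the floor 2 rose and 4 fell, with a median of 0.06 that turned to -0.06 without less specific probe sets. The share that passed was 33.3%, against 12.1% of all genes. The lipid droplet coat gene Plin4 was 69 at 8 h and 1116 at 24 h, 16.2-fold higher, against 168 and 1025 in wild type. Outside the list, its relative Plin5 rose from 43 to 785, 18.3-fold, against 109 and 1811 in wild type, while Plin2, the common coat protein, was 811 at 8 h and 605 at 24 h. The fatty acid carriers Fabp3 and Fabp4 went opposite ways, Fabp3 up from 145 to 1211 and Fabp4 down from 1016 to 31, 32.8-fold lower. Among receptors, Lrp8 fell from 715 to 191 and the fatty acid translocase Cd36 from 738 to 356, and Scarb1, which takes up cholesterol from lipoproteins, was 4641 at 8 h and 5106 at 24 h. Vldlr was 1155 at 8 h and 1861 at 24 h in the knockout, with no call, and fell from 1966 to 653 in wild type. Angptl4, a lipase inhibitor, fell from 6276 to 1181, 5.31-fold.

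Part of the genes typical of granulosa cells before ovulation rose. Of 25 above the floor 9 rose and 1 fell, with a median of 0.76, against 7, 1 and 0.51 in wild type. The knockout share that passed was 40%, against 12.1% of all genes, and 15 did not pass. Of the 10 calls 5 were lost under some choice of probe set. Inhbb, the activin and inhibin βB subunit, was 1838 at 8 h and 5789 at 24 h, 3.15-fold higher, against 1692 and 4031 in wild type. Kctd14 rose from 1484 to 6825, 4.6-fold, and Nppc, the C-type natriuretic peptide that holds the oocyte in meiosis, from 79 to 322, 4.08-fold. Foxl2, a transcription factor that maintains granulosa identity, rose from 1172 to 3125 and Amhr2, the receptor of anti-Müllerian hormone, from 3059 to 7255. The calls of Foxl2, Inhba (2441 to 5359) and Kitl (1445 to 3139) were lost with averaged probe sets, and that of Amhr2 without less specific ones. Inha, the shared inhibin α subunit, was 20053 at 8 h and 17426 at 24 h and Fshr, the receptor for follicle-stimulating hormone, 389 at 8 h and 347 at 24 h, without a call. Grem1, a secreted BMP antagonist, fell from 714 to 101, 7.07-fold, as in wild type from 203 to 27. Of 33 inhibin, TGF-β and BMP pathway genes 3 rose and 2 fell, a share of 15.2% against 12.1% of all genes, with a median of 0.18. The receptor gene Tgfbr1 was 3406 at 8 h and 6119 at 24 h. Of 18 insulin-like growth factor genes 11.1% passed the rule, all lower, while 5.22% of all genes fell and 12.1% passed in either direction. The genes that passed were Pappa (141 to 52), a protease of IGF-binding proteins, and Stc1 (258 to 90). Both calls were lost with averaged probe sets.

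Among the largest rises were genes of varied function. Ccn5, a secreted matricellular protein, was 31 at 8 h and 971 at 24 h in the knockout, 31.3-fold higher, against 67 and 550 in wild type. Cemip, which binds and helps to degrade hyaluronan, was 180 at 8 h and 3836 at 24 h, 21.3-fold higher, against 227 and 3571 in wild type. Another Cemip probe set above the floor was higher too but did not pass the rule in the knockout. Gm2a, the lysosomal activator of ganglioside breakdown, was 606 at 8 h and 12710 at 24 h, 21-fold higher, against 1042 and 9280 in wild type. Mgst2, a microsomal glutathione transferase, went from 141 to 2499 and Gsg1l, an accessory subunit of glutamate receptors, from 23 to 380, and in wild type from 143 to 1856 and from 23 to 375. These 5 rose past the rule in both genotypes. Car12, a membrane carbonic anhydrase, was 131 at 8 h and 2664 at 24 h, 20.3-fold higher, against only 72 and 142 in wild type. Spns2, an exporter of sphingosine 1-phosphate, rose from 24 to 636 and in wild type from 56 to 186. Niban1 rose from 69 to 1490, 21.6-fold, and in wild type from 119 to 378. Rasgrf2, an exchange factor for Ras, rose from 45 to 479, 10.6-fold, against 14 and 27 in wild type. Another Rasgrf2 probe set above the floor was higher too but missed the rule. Plch2, a phospholipase C, Mamdc2 and Tnnt1, a troponin of slow muscle, rose 13.2-fold, 13.7-fold and 13.2-fold, to 543, 508 and 448.

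Chemokine genes included Cxcr4, whose fall departed from wild type more than that of any other gene past the rule. Cxcr4, the receptor of CXCL12, was 2238 at 8 h and 30 at 24 h in the knockout, 74.6-fold lower, and 2567 and 614 in wild type, 4.18-fold lower. Both genotypes were alike at 8 h, and the knockout lost the transcript nearly to the floor. Its ligand gene Cxcl12 rose from 67 to 300 in the knockout, 4.48-fold, and was 315 and 324 in wild type. Il6 fell from 227 to 25 and Lif, of the same cytokine family, from 207 to 41, 9.08-fold and 5.05-fold, where Lif was 51 and 38 in wild type. The acute-phase gene Saa3 rose from 44 to 141 and in wild type from 96 to 757, and Hp, haptoglobin, was 37 at 8 h and 26 at 24 h in the knockout but rose from 52 to 558 in wild type. In all, 6 of 20 cytokine and chemokine genes above the floor fell and 2 rose, a share of 40% against 12.1% of all genes. The list median of -0.15 ranged from -0.65 without less specific probe sets to 0.00 with no floor.

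Prostaglandin genes, Ptgs2 included, were split, with 4 up and 4 down of 16 above the floor. Their median of -0.04 turned to 0.24 with averaged probe sets. The share that passed was 50%, against 12.1% of all genes. The falls of Hpgd and Ptger3 were lost with averaged probe sets. Ptges, the prostaglandin E synthase, rose from 159 to 495, 3.11-fold, and Ptgds, the prostaglandin D synthase, from 87 to 510, 5.86-fold. Slco2a1, the prostaglandin uptake carrier, was 2949 at 8 h and 509 at 24 h, 5.79-fold lower, against 592 and 167 in wild type. Of 22 angiogenic factors 1 rose and 3 fell in the knockout, a share of 18.2% against 12.1% of all genes. Vegfa, the main vessel growth factor, was 439 at 8 h and 383 at 24 h there and rose from 418 to 891 in wild type, and Apln, the apelin gene, was 62 at 8 h and 45 at 24 h and rose from 295 to 1491 in wild type. These differences between the genotypes' changes were not tested.

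Transporters and enzymes of amino acid and glutathione supply held large falls. Slc7a8, a carrier of neutral amino acids, was 4629 at 8 h and 245 at 24 h, 18.9-fold lower, against 4243 and 1199 in wild type. Slc7a11, the cystine carrier, went from 410 to 24, 17.1-fold lower, and their shared partner chain Slc3a2 from 6262 to 1222, 5.12-fold lower. Both subunits of the enzyme that starts glutathione synthesis fell with them, Gclc from 3221 to 510 and Gclm from 1657 to 430. In the transferase family that uses glutathione, Gsta2 was 5025 at 8 h and 62 at 24 h, 81-fold lower, and Gsta4 13703 at 8 h and 1988 at 24 h, 6.89-fold lower, whereas Mgst3 rose from 523 to 1852 and Gstt2 from 67 to 219. Gsta2 is one of several similar genes, and its probe set is of a class that can match more than 1 transcript. Over the lists, 3 of 22 amino acid transporters fell and 2 rose, and 5 of 29 transferase and detoxification genes fell and 4 rose. These shares were 22.7% and 31.0%, against 12.1% of all genes. The transporter rises were Slc7a5, lost with median centring and lowess scaling, and Slc38a3, lost with averaged probe sets. The list medians of -0.04 and 0.07 changed sign with the floor or the probe set.

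Oxidative phosphorylation genes moved little and glycolysis and hypoxia genes in both directions. None of 33 oxidative phosphorylation genes passed the rule in either genotype, and their knockout median was 0.21. Of 27 glycolysis and hypoxia genes 4 rose and 4 fell, with a median of -0.20, against 7, 3 and 0.43 in wild type. The knockout share that passed was 29.6%, against 12.1% of all genes. Pgk1, phosphoglycerate kinase, fell 2.65-fold in the knockout and was 4924 and 5567 in wild type. Ldha, lactate dehydrogenase A, was 3608 at 8 h and 1874 at 24 h, short of the rule, and 3322 and 5709 in wild type, so the genotypes pointed in opposite directions. Egln3, an oxygen-sensing hydroxylase, fell from 408 to 26, 15.7-fold, and Ddit4, a brake on mTOR, from 5638 to 1129, 4.99-fold. The rises of Pfkl, Aldoc and Pdk1 were each lost with another choice of probe set. Of 21 unfolded protein response genes 2 fell, Atf4 from 3224 to 1344 and Creld2 from 1580 to 699, and none rose. That share was 9.52%, while 5.22% of all genes fell and 12.1% passed in either direction. Among 13 retinoid genes 15.4% passed the rule, all higher, while 6.87% of all genes rose and 12.1% passed in either direction. Aldh1a1, which makes retinoic acid, rose from 1822 to 8536, 4.68-fold, where wild type was 3611 and 2300. Dhrs3, a retinal reductase, rose from 131 to 338.

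Some mitosis genes fell in both genotypes. Of 28 mitosis genes 10 fell and none rose, with a median of -0.88, against 13 and -0.97 in wild type, and 9 fell in both. The knockout share of falls was 35.7%, against 5.22% of all genes. The other 18 did not pass in the knockout, and the calls of Aurka, Top2a, Nusap1 and Tpx2 were lost with averaged probe sets. Ube2c, a ubiquitin enzyme that ends mitosis, was 3339 at 8 h and 1329 at 24 h, 2.51-fold lower, against 2596 and 1017 in wild type. The kinase genes Cdk1 and Aurkb fell from 1439 to 627 and from 212 to 79. Mki67, the proliferation antigen, was 1250 at 8 h and 880 at 24 h and missed the rule. Of 27 replication genes 2 fell, with a median of -0.40, of which Rrm2, a subunit of the enzyme that makes deoxynucleotides, went from 2240 to 536, 4.18-fold lower. Of 19 cell cycle inhibitors and D cyclins 2 fell, Cdkn2d from 902 to 306 and Ccnd3 from 188 to 91, the latter call lost with averaged probe sets, and none rose. Of 15 apoptosis genes only Apaf1, the scaffold of the apoptosome, passed, down from 952 to 320, and it did so in wild type too. The shares that passed were 7.41% for replication, 10.5% for inhibitors and D cyclins and 6.67% for apoptosis. All of these calls were falls, while 5.22% of all genes fell and 12.1% passed in either direction.

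Clock genes changed in both directions, 4 up and 4 down of 17, a share of 47.1% against 12.1% of all genes. The calls of Arntl and Per3 were lost with averaged probe sets. Nr1d2, a repressor of the clock, rose from 309 to 1562, 5.06-fold, and Dbp, a clock output factor, from 240 to 877, 3.65-fold. Per1 fell from 959 to 281 and Cry1 from 381 to 111, core repressors of the loop. In wild type the same 4 genes went the same way, with 507 for Dbp and 1315 for Nr1d2 at 24 h. The labels do not state the clock time of the collections. Bhlhe40, another repressor, fell from 607 to 167 in the knockout and was 708 and 661 in wild type.

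**Figure D4:**
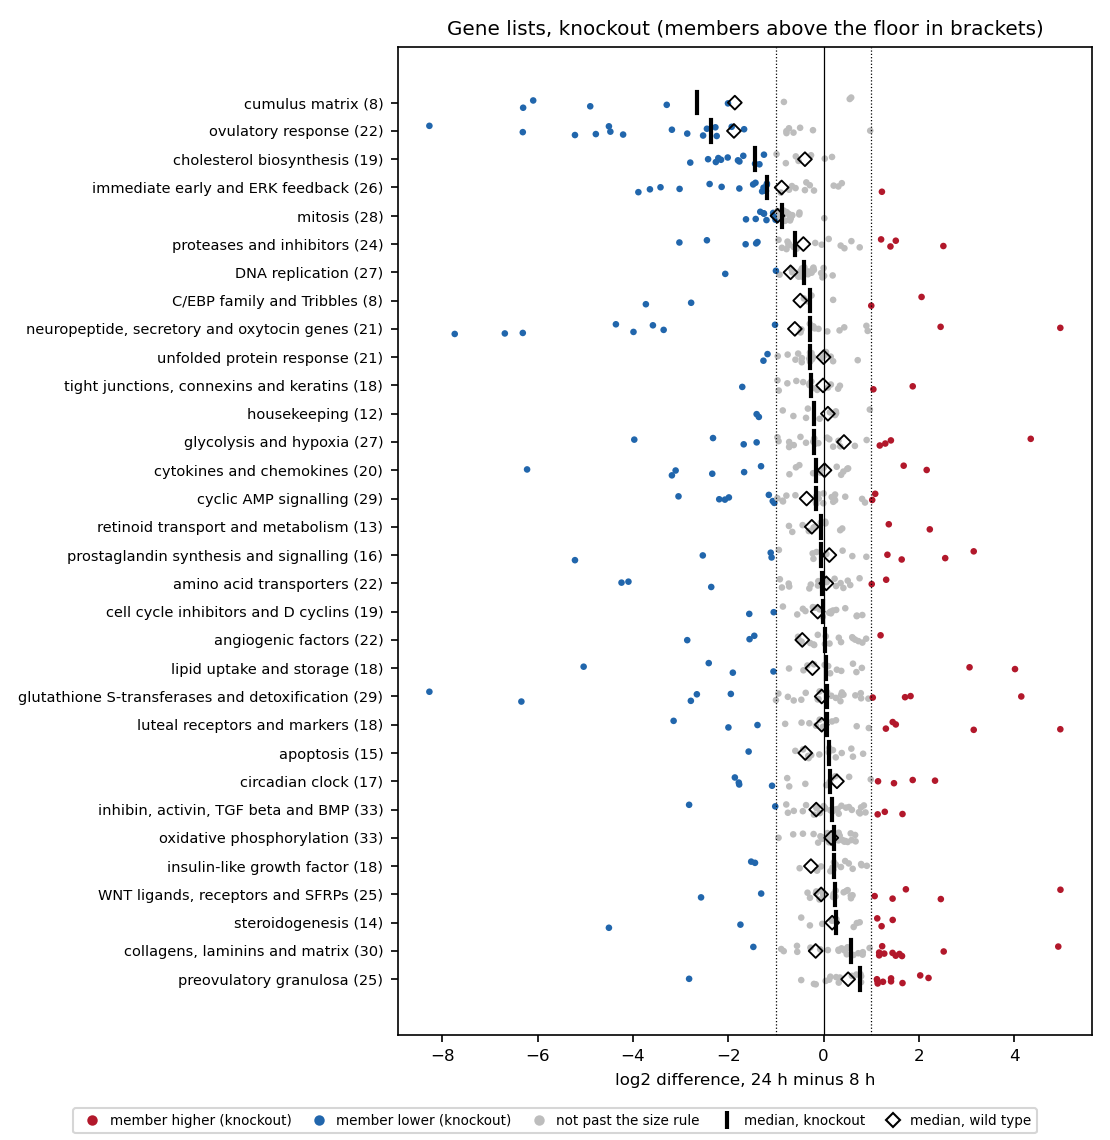
Log2 difference, 24 h minus 8 h, of every member above the floor in 32 gene lists, ordered by the knockout median (black tick), with red points higher and blue points lower by the 2-fold rule, and wild-type medians as diamonds, 1 array per group and time. Cumulus matrix, ovulatory response, cholesterol biosynthesis and immediate early lists lie furthest left, preovulatory granulosa and collagen lists furthest right, and oxidative phosphorylation stays within the dotted 2-fold lines.

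Matrix genes rose more often than they fell in the knockout. Of 30 collagens, laminins and other matrix genes 10 rose and 1 fell, with a median of 0.56, against 4, 1 and -0.17 in wild type. The knockout share that passed was 36.7%, against 12.1% of all genes, and 19 did not pass. Tnxb, the matrix protein tenascin-X, was 20 at 8 h and 607 at 24 h, at least 27.6-fold higher, against 36 and 91 in wild type. Col1a2 rose from 1264 to 3608 and Col3a1 from 1762 to 3955, fibrillar collagens that in wild type were 5019 and 4150 and 8032 and 6211. Col15a1, a collagen of basement membrane zones, rose from 53 to 304, 5.74-fold, and Col4a5, of the basement membrane itself, from 366 to 1103. The fibrillar collagens thus began lower in the knockout array at 8 h and were closer to the wild-type values at 24 h. Tnc, tenascin-C, fell from 250 to 90, a call lost with averaged probe sets. Markers of stroma, pericytes and smooth muscle, which include 3 of these collagens, moved the same way: 5 of 17 rose and none fell. That share was 29.4%, while 6.87% of all genes rose. The median of these markers was 0.59, and their summed intensity went from 6756 to 13395. In wild type the sum went from 29968 to 19851 and 7 of 18 fell. The smooth muscle markers Acta2 (899 to 1356) and Tagln (359 to 386) missed the rule in the knockout, and Cnn1 was under the floor at 15 on both arrays. The part of such cells in the matrix genes was not tested.

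Proteases were split, 4 up and 5 down of 24 above the floor with a median of -0.60. The share that passed was 37.5%, against 12.1% of all genes. Mmp11 was 1029 at 8 h and 5873 at 24 h, 5.71-fold higher, against 604 and 1474 in wild type, and Mmp2, a gelatinase, rose from 115 to 304. Plau, the urokinase plasminogen activator, fell from 895 to 288, its receptor gene Plaur from 208 to 78 and its inhibitor gene Serpinb2 from 57 to 7. Pcsk5, a proprotein convertase, was 4993 at 8 h and 915 at 24 h, 5.46-fold lower. Of 25 WNT genes 5 rose, Wnt5a from 34 to 187 among them, and 2 fell, a share of 28% against 12.1% of all genes. The receptor gene Fzd1 was 1444 at 8 h and 243 at 24 h, 5.94-fold lower. The rises of Fzd4 and Ror1 were lost with averaged probe sets. Of 18 junction and keratin genes 16.7% passed the rule, against 12.1% of all genes. F11r rose from 641 to 2343, Cldn11 rose from 16 to 33, near the floor, and 1 member fell. The Cldn11 call was lost with a higher floor and with median centring, and that of Cgn, the member that fell, with averaged probe sets.

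The granulosa identity of the preparation was checked against marker lists. Granulosa markers summed to 29535 at 8 h and 38153 at 24 h, of which Inha gave 20053 and 17426. Other members, such as Fshr and Nr5a1, were far lower. By the rule 4 of 8 rose, or 50% against 6.87% of all genes, and each of these calls was lost under some choice of probe set. The stroma, pericyte and smooth muscle markers described above summed to 6756 and 13395. Endothelial markers were low: Pecam1 was 13 on both arrays, and Tie1, Sox17, Fli1 and Vwf were also under the floor on both. Of 17 above it 1 rose and 1 fell, a share of 11.8% against 12.1% of all genes. The fall, that of Cdh5, was lost with averaged probe sets. The summed intensity of the endothelial markers went from 1494 to 2332, while in wild type it went from 3577 to 2124. Ramp2 was the highest member in the knockout, at 559 at 8 h and 1280 at 24 h, and gave most of the rise of the knockout sum. Leukocyte markers summed to 1331 and 1887, with Itgam and Cd79a under the floor. Of 19 above it 3 rose and 1 fell, a share of 21.1% against 12.1% of all genes. Complement genes C1qa (51 to 109) and C1qc (36 to 79), which macrophages make, rose. The rise of Lyz2 was lost with median centring and lowess scaling. S100a8 fell, with a log2 difference of -1.25. In the leukocyte list 14 members had a positive difference and 5 a negative one. The sum of theca markers went from 3572 to 10161, and from 1750 to 1625 without Aldh1a1. In wild type it went from 6631 to 3748, and from 3020 to 1448 without Aldh1a1. Of 7 theca markers 1 rose and 1 fell in the knockout, 28.6% against 12.1% of all genes, and 4 fell in wild type. Cyp17a1, the enzyme that defines theca, was 339 at 8 h and 240 at 24 h in the knockout. Hhip, a hedgehog-binding protein, fell there from 382 to 16, at least 17.4-fold. Oocyte genes were present and level, with none of 16 past the rule and sums of 7518 and 7729. Of 12 surface epithelium markers Gpm6a and Muc16 rose and none fell, a share of 16.7%, while 6.87% of all genes rose and 12.1% passed in either direction. The Gpm6a call was lost without less specific probe sets and the Muc16 call with median centring and lowess scaling. Of 3 red cell markers none passed. The part of any of these cell types in the gene changes described here was not tested.

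**Figure D5:**
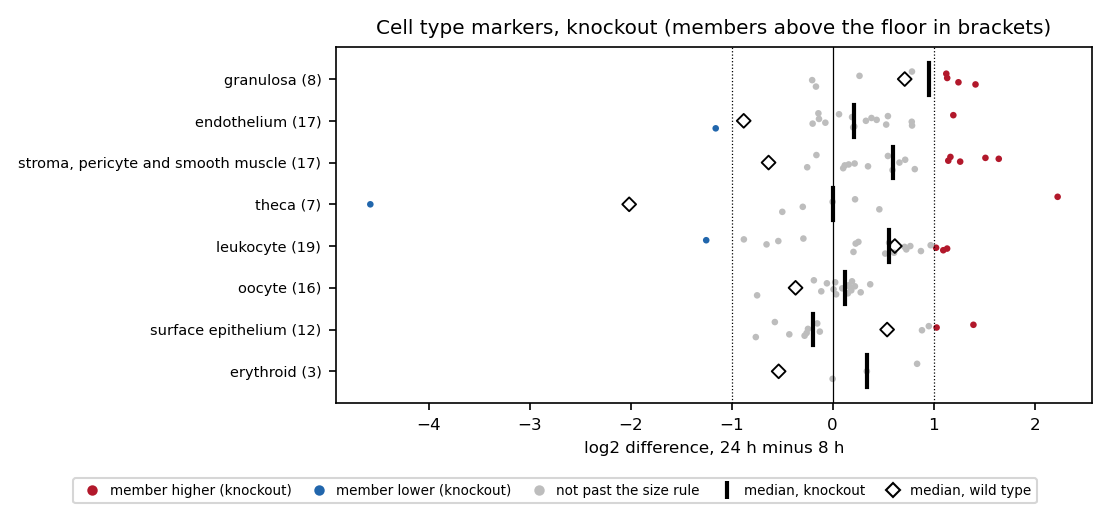
Log2 difference, 24 h minus 8 h, of each cell type marker above the floor, with knockout medians as black ticks and wild-type medians as diamonds, 1 array per group and time, and dotted lines at the 2-fold threshold. Stroma, endothelium, oocyte and red cell (erythroid) medians lie above 0 in the knockout and below 0 in wild type, and no oocyte marker crosses a dotted line.

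The knockout change was set beside that of wild type gene by gene, over 12741 genes above the floor in both. The comparison shares no array between the genotypes. Of 856 genes that rose in the knockout 338 also rose in wild type, which is 39.5% of the knockout rises and 49.0% of the 690 wild-type rises, while 5.5% of genes above the floor rose in wild type. Of 658 genes that fell in the knockout 410 also fell in wild type, 62.3% of the knockout falls and 51.7% of the 793 wild-type falls, while 6.35% of genes fell in wild type. Of the 518 knockout rises that were not wild-type rises 427 had a positive difference in wild type, which is 82.4%, and of the 248 such falls 211 had a negative one, which is 85.1%. Over all genes with a positive knockout difference 67.9% had that sign in wild type, and over all with a negative one 73.6%. The genes that rose in the knockout had a median log2 difference of 1.31 there and 0.80 in wild type, and those that fell had -1.47 and -1.20. These genes were chosen on the knockout arrays, a choice that favours larger knockout values. In opposite directions past the rule went 9 rises and 2 falls.

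The departures from wild type were largest for a small set of genes. Among rises, Myl9, a myosin light chain of smooth muscle, was 129 at 8 h and 553 at 24 h in the knockout, 4.29-fold higher, and 784 and 318 in wild type. Npr3, the clearance receptor of natriuretic peptides, rose from 23 to 115 and in wild type fell from 35 to 13, which against the floor is only at least 1.59-fold. Smpx, a small muscle protein, rose from 57 to 134 and in wild type fell from 131 to 24. The smooth muscle markers Acta2 and Tagln did not pass in the knockout. Among falls, Chst1, a sulfotransferase of keratan sulfate, was 419 at 8 h and 100 at 24 h in the knockout, 4.19-fold lower, and rose from 288 to 758 in wild type. Abcc2, an export pump, fell from 133 to 12, and Oit3 from 213 to 24, where wild type held 23 and 10 and 26 and 17. For Abcc2 and Oit3 the knockout array at 8 h stood above wild type, and both genotypes were near or under the floor at 24 h. Ydjc fell from 166 to 45 and was 187 and 258 in wild type. The probe sets named for Bambi-ps1 (269 to 25), a pseudogene, and for Trbv1 (332 to 29), a T cell receptor segment, fell as well and may report similar transcripts, and the Trbv1 call was lost without less specific probe sets.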

How the data were processed

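Per the labels' protocols, RNA was isolated on RNeasy columns, and 5 ug of it gave the biotinylated cRNA put on each array. The authors' deposited values are intensities, whole numbers on a linear scale, and affy and RMA, without versions, are the tools in the submitters' processing notes. Rounding makes low values coarse. Log2 was taken, with no pseudocount. Gene symbols came from the annotation of the platform and were updated by Entrez identifier, with 34754 probe sets matched, through RefSeq's GRCm38.p6 gene table. Of 45101 probe sets 34958 had 1 symbol, 932 several and 9211 none. Only the first were used.

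With 1 array per group no test was made. The size rule asked for 2-fold and a higher value at or above the 40th percentile of all 5 arrays, which was 22. Fold against a value under it was computed against 22. The quantiles of both knockout arrays nearly coincided, with a mean difference of 0.02 log2 between sorted values above the floor. Genes were named as the 15 largest rises and falls, the members of 32 gene lists and 8 marker lists, and the 10 genes in each direction whose change departed most from wild type. These members and lists were chosen with earlier results of these data known. Alternatives covered the probe set, the floor, the scaling and the fold. Python 3.11.15, numpy 2.4.6, pandas 2.3.3, statsmodels 0.14.6 and matplotlib 3.10.9 were used, and the steps were tested on simulated data. The number of arrays limits the precision.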

Additional observations from a re-analysis of the deposited data

Results flagged for a closer look

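A set of 7 genes passed the 2-fold rule in the knockout and, in the opposite direction, in wild type, and each difference between the genotypes was not tested, with 1 array per group. The knockout log2 differences were 1.45 for Akr1c18, -2.07 for Chst1, 2.10 for Myl9, 2.32 for Npr3, 1.15 for Ogn, 1.20 for Ramp2 and 1.23 for Smpx. In wild type they were -1.32 for Akr1c18, 1.40 for Chst1, -1.30 for Myl9, -1.43 for Npr3 as measured, -1.24 for Ogn, -1.09 for Ramp2 and -2.45 for Smpx. Ogn, a small matrix proteoglycan, is a stroma marker and read 203 at 8 h and 449 at 24 h in the knockout and 1062 and 449 in wild type, and its call was lost with averaged probe sets. Ramp2, a receptor partner protein of vessels, read 559 at 8 h and 1280 at 24 h and 612 and 288. Npr3 and Smpx were lowest in wild type at 24 h, at 13 and 24. The value of Npr3 is under the floor, and against the floor its fall was at least 1.59-fold, short of 2-fold. The other 4 genes with opposite directions, Loxl3, Mfap5, Pla1a and Tril, lie outside the rule for named genes and are named after their values were seen, and the calls of Mfap5 and Tril were lost with averaged probe sets.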

How the results depend on the processing

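The counts of 893 higher and 679 lower genes depended most on the fold: at 1.5-fold they were 2157 and 1474, and at 3-fold 247 and 289. Averaging all probe sets of a gene gave 630 and 562, and the other settings of probe set, floor and scaling gave 753 to 903 higher and 607 to 736 lower. The floor from the 4 arrays at 8 h and 24 h, chosen after seeing the data, gave 896 and 683. Of 792 named gene values, averaging lost 47 calls and gained 10. Aldoc reversed to -0.24 without the less specific probe set classes (_s_at, _x_at and _a_at), and the cause was not tested. Medians of 11 lists near 0 changed sign or reached 0 under some setting, and that of the cumulus matrix list ranged from -3.29 to -0.60. No paired analysis was possible because each group has 1 array. Values near the floor of 22 carry no order.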

Other observations

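Lysosomal genes were looked at after the rise of Gm2a had been seen, so the list was chosen with these data in view. Of 40 lysosomal genes above the floor in the knockout 13 rose and 2 fell, while 6.87% of all genes rose and 5.22% fell. Of these 40, 34 had a positive log2 difference, and the median was 0.75, against 0.08 over all genes. In wild type 11 rose and 1 fell, with a median of 0.73. Ctsa, the protective protein cathepsin A, went from 668 to 2059, 3.08-fold higher, and Ppt1, a thioesterase, from 502 to 1612, 3.21-fold higher. The sulfatase genes Arsa and Arsb rose from 90 to 288 and from 438 to 1360, and Manba, β-mannosidase, from 151 to 498. The exceptions were Gla, α-galactosidase A, which fell from 220 to 107, and Pla2g15, a lysosomal phospholipase, which fell from 376 to 176.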
